A study of Danio rerio with 12 samples.

Results

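The immediate early genes *jun*, *ier2a* and *plk3* were followed along the paraxial mesoderm of the zebrafish embryo. They were found by their symbols in the array's probe-gene table, which gave 4 probe sets (1 for *ier2a*, 1 for *plk3* and 2 for *jun*) among 15502 on the array, or 3 of 8793 named genes. The 3 genes were chosen by their signals on these same arrays, so those signals are given as a description, without a test. All embryos were wild type of the AB line, grown at 23 °C to the 12-somite stage and dissected by hand without any other treatment. The 6 positions were the center of the tailbud (position 1), the flank of the tailbud (position 2, 1 array from the left side and 1 from the right), 3 levels of the presomitic mesoderm (PSM), namely posterior (position 3), center (position 4) and anterior (position 5), and the last formed somites (position 6). Each position has 2 arrays, called biological replicates in the labels, and 12 arrays were used in all. The sources used here do not say how many embryos stand behind an array, so the spread between 2 arrays may be partly technical. A signal is the linear intensity of a probe set, scaled so that the trimmed mean of every array is 150. The number of arrays limits the precision, and errors beside signals are the SD with n = 2.

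Immediate early genes are transcribed within minutes of a growth factor or stress signal, without new protein synthesis, mostly through MAP kinases acting on transcription factors already present in the cell. *jun* encodes a subunit of AP-1, a dimeric transcription factor made with Fos, ATF and other Jun proteins. *ier2a* encodes a nuclear protein that in zebrafish has been linked to FGF signalling in left-right patterning. *plk3* encodes a polo-like kinase of the cell cycle and stress response. In the PSM, FGF signalling is high toward the tailbud and falls toward the somites, and cells become part of a somite as they leave its range.

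The labels of the pieces were checked against marker genes. The summed signal of 7 tailbud markers, among them *tbxta* and *msgn1*, lay at 18986 and 17232 in the center of the tailbud and at 1838 and 3070 in the somites. Along the linear trend 6 of these 7 genes fell at an adjusted p under 0.05 (limma), against 6.12% of all tested probe sets. The summed signal of 7 somite markers, among them *tcf15* and *aldh1a2*, lay at 184 and 379 in the center of the tailbud and at 7976 and 7038 in the somites. Of the 5 somite markers tested, 4 rose along the trend, against 7.1% of all tested probe sets. The 2 arrays of the tailbud center differed in markers of other tissues. Notochord markers (12 genes) summed to 855 and 3464 there, and neural markers (15 genes) to 1257 and 3107. The part of these tissues in the values of position 1 was not tested. Array medians lay between 27.3 and 68.3, with both somite arrays at the low end.

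The 3 genes followed 3 different courses. *ier2a* was high from the tailbud through the posterior PSM and low anterior to it. *plk3* was low from the tailbud through the center PSM and high in the anterior PSM and the somites. *jun* had its highest mean in the center PSM with both of its probe sets, and its brighter probe set was lowest next to it, in the posterior PSM. Over the 12 arrays the log2 signals of *ier2a* and *plk3* had a Pearson r of -0.79, those of *jun* and *ier2a* -0.37, and those of *jun* and *plk3* 0.10. These r values share the same amplified RNA and the same scaling factor in each array and are given as a description. Every r of *jun* with another gene, here and below, is for the brighter *jun* probe set alone. Fewer cells expressing a gene and less RNA per cell cannot be told apart in such pieces.

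**Figure D1:**
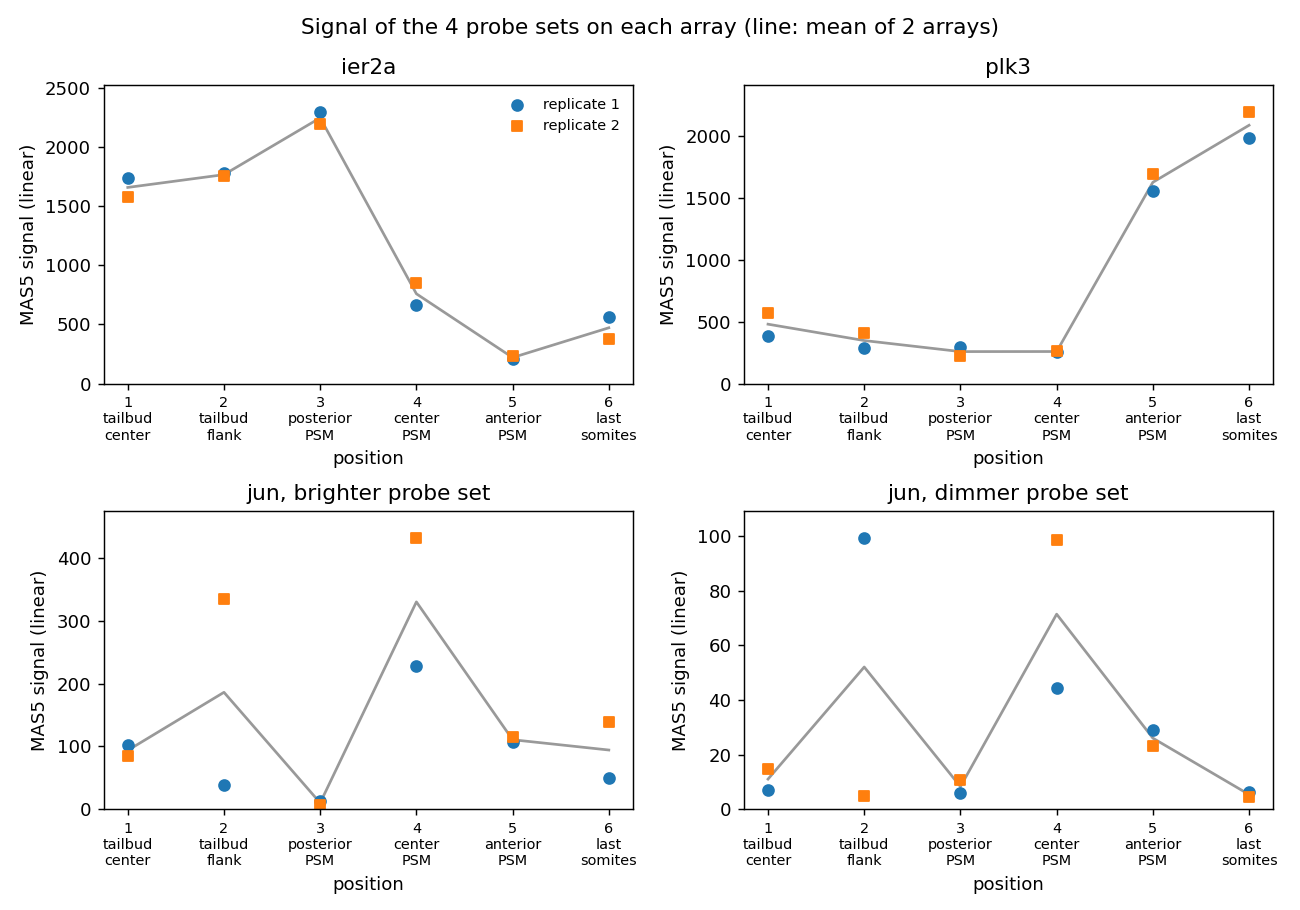
Signal of each probe set (linear scale, vertical axis from 0) on the 12 arrays, by position from the tailbud center (1) to the last formed somites (6). Circles are replicate 1, squares replicate 2, and the line joins the means of 2 arrays. *ier2a* falls between positions 3 and 5, *plk3* rises between positions 4 and 5, and both probe sets of *jun* have their highest mean at position 4.

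*ier2a* measured 1742 and 1576 in the center of the tailbud, 1778 and 1757 in its flank and 2297 and 2199 in the posterior PSM. Further anterior it measured 666 and 852 in the center PSM, 208 and 232 in the anterior PSM and 563 and 380 in the somites. The 6 arrays of positions 1 to 3 all lay above the 6 arrays of positions 4 to 6, an order that 1.45% of the 10851 tested probe sets had. The posterior PSM had the highest level, 2248 ± 69.2, and the anterior PSM the lowest, 219.8 ± 17.3. Both anterior PSM arrays lay below the 10 others, as in 1.9% of the tested probe sets. In the order of levels, from position 3 over 2, 1, 4 and 6 to 5, no neighbours had overlapping arrays. Positions 2 and 1 differed by only 0.09 on the log2 scale, less than the residual SD of 0.20. The order was set by the same means, and the share of all probe sets with such a separation was not counted. After median centring, position 6 (3.48 on the log2 scale) came above position 4 (3.42). Position 1 (4.95) likewise came above position 2 (4.57), while position 3 stayed highest and position 5 lowest.

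The fall of *ier2a* was spread over both steps between the posterior and the anterior PSM. On the scale of log2 of the signal plus 12.2, which understates changes of low signals, the change was -1.56 ± 0.21 (SE) from position 3 to 4 and -1.72 ± 0.21 from position 4 to 5. Both arrays of position 4 lay below both of position 3, as in 16.6% of the tested probe sets. The somites lay above the anterior PSM by 1.04 ± 0.21, so the course was not a steady decline. The difference between the highest and the lowest position was 3.29 (9.75-fold), against a median of 1.17 over all tested probe sets. Its fitted linear change from position 1 to 6 was -2.78 ± 0.18, which ranked 72 among the falls of 10851 probe sets.

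*plk3* measured 386 and 572 in the center of the tailbud, 289 and 405 in its flank, 296 and 219 in the posterior PSM and 254 and 262 in the center PSM. It measured 1556 and 1692 in the anterior PSM and 1978 and 2191 in the somites. The 4 arrays of positions 5 and 6 all lay above the 8 arrays of positions 1 to 4, an order found in 2.55% of the tested probe sets. The step from the center to the anterior PSM, 258 ± 5.44 to 1624 ± 96.4, was a log2 change of 2.60 ± 0.24 (6.05-fold), which ranked 8 among the rises of 10851 probe sets at that step. Both arrays of position 5 lay above both of position 4, as in 16.9% of the tested probe sets. The other steps of *plk3* were between -0.44 and 0.36.

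The levels of *plk3* in the tailbud and the posterior PSM formed a shallow slope. The center of the tailbud had 479 ± 132, its flank 347 ± 82.6 and the posterior PSM 258 ± 54.4. The arrays of positions 1 and 2 overlapped, as did those of positions 4 and 3 at the low end of the order. The 2 highest positions did not overlap, and the somites lay above the anterior PSM by 0.36 ± 0.24 on the log2 scale. The share of all probe sets with this separation was not counted. The fitted linear change from position 1 to 6 was 2.46 ± 0.21, although most of it lay in a single step.

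*jun* was measured by a brighter and a dimmer probe set. The brighter one measured 103 and 84.9 in the center of the tailbud, 37.9 on the left and 335 on the right flank, and 13.0 and 7.30 in the posterior PSM. It measured 228 and 432 in the center PSM, 107 and 115 in the anterior PSM and 49.2 and 140 in the somites. Both posterior PSM arrays lay below the 10 others, as in 1.1% of the tested probe sets, while every other pair of neighbours in the order of levels overlapped. The posterior PSM signals lay around the offset of 12.2, so the size of the step to the center PSM is not fixed by these data. On the log2 scale it was 3.88 ± 0.66, with 4.87 for an offset of 1 and 2.60 for an offset of 50.2. Both arrays of position 4 lay above both of position 3, as in 17.6% of the tested probe sets.

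The dimmer probe set of *jun* also had its highest mean in the center PSM, with 44.3 and 98.6. It gave 5.90 and 10.7 in the posterior PSM, 28.9 and 23.2 in the anterior PSM and 6.30 and 4.50 in the somites. The center of the tailbud, with 7.20 and 14.9, overlapped the posterior PSM. The flank arrays went opposite ways in the 2 probe sets: the dimmer one had 99.4 on the left and 4.80 on the right. Its mean level was at the 33rd percentile of all probe sets, just above the filter at the 30th. Over the 12 arrays the 2 probe sets had an r of 0.28. In both probe sets the center PSM arrays lay above those of the posterior and the anterior PSM. How many of all probe sets had this separation was not counted. The order of center over posterior PSM alone was found in 17.6% of the tested probe sets. In the dimmer probe set both posterior PSM signals lay below the offset. The probe sets differed elsewhere: in the brighter one the tailbud center (93.8 ± 12.6) and the somites (94.4 ± 63.9) lay above the posterior PSM (10.2 ± 4.03). In the dimmer one the tailbud center (11.1 ± 5.44) and the somites (5.40 ± 1.27) overlapped the posterior PSM (8.30 ± 3.39), and the somites had the lowest mean.

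The residual SD of the brighter *jun* probe set was 0.93 on the log2 scale, against 0.20 for *ier2a* and 0.25 for *plk3*. Its fitted linear change was 0.42 ± 0.56, and it was -0.18 without replicate 1 of position 2 (left), 1.02 without replicate 2 of position 2 (right), -0.05 without replicate 2 of position 6 and 0.88 without replicate 1 of position 6. Markers of blood and endothelium moved with *jun* in part. The summed signal of the 12 genes of that list on the array (*hbae3*, *hbbe3* and *gata1a* among them, none listed at 0) was 612 and 1216 in the posterior PSM and 3032 and 7085 in the center PSM. In the flank it was 636 on the left and 3531 on the right, in the same order as the brighter *jun* probe set, and in the anterior PSM 5030 and 1628, where both *jun* arrays were alike. Epidermis markers (23 genes) summed to 7253 on the left and 13415 on the right flank, again in the order of the brighter *jun* probe set. They summed to 12802 and 11182 in the center PSM, where their mean was highest. With 11428.5 and 7851 in the posterior PSM, these 2 positions overlapped. The part of either set of markers in the course of *jun* was not tested.

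The genes with the courses most like each of the 3 were taken by Pearson r over the 12 arrays among 4615 named genes. For *ier2a*, 8 genes had an r above 0.9, and the 6 nearest were *atp6v1d* (0.94), *metrn* (0.94), *fam222aa* (0.93), *itm2cb* (0.93), *il17rd* (0.92) and *hoxa9a* (0.92). *il17rd* encodes Sef, a membrane inhibitor of FGF signalling, and *metrn* a secreted protein. *metrn* had 1357 ± 284 in the posterior PSM and 378 ± 5.52 in the anterior PSM. *atp6v1d*, a subunit of the vacuolar proton pump, had a smaller range, with 206 ± 5.66 and 120 ± 9.12 at these positions.

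For *plk3*, 3 genes had an r above 0.9. The 6 nearest were *lamp1b* (0.92), *pgp* (0.91), *cxcr4b* (0.91), *ttn.2* (0.89), *cd81a* (0.89) and *fam49a* (0.88). Among them, *cxcr4b* had a mean above 97.3 only in the somites. *ttn.2* and *fam49a* had one only in the anterior PSM and the somites, where *plk3* was high. *lamp1b* encodes a lysosomal membrane protein and shared the dip between the ends, with 382 ± 71.8 at position 1, 203 ± 90.3 at position 3 and 555 ± 29.8 at position 6. *ttn.2* encodes titin, the giant protein of the sarcomere, and unlike *plk3* made most of its rise after the anterior PSM, from 302 ± 56.5 to 1978 ± 176. For *jun*, taken by its brighter probe set, no gene reached 0.9. The nearest were *sorbs2b* (0.90 after rounding), *ggps1* (0.83), *ca2* (0.81), *prickle2b* (0.80), *afg2b* (0.79) and *gna12a* (0.78). Of these, *sorbs2b*, *prickle2b* and *afg2b* had a mean above 97.3 only in the center PSM, where *jun* was highest. The signal limit thus had a part in which genes could be listed for *plk3* and *jun*. *sorbs2b*, a cytoskeletal adaptor, had 10.9 ± 7.64 in the posterior PSM and 121 ± 46.1 in the center PSM. Carbonic anhydrase *ca2*, found in red blood cells among others, had 7.75 ± 4.74 and 181 ± 61.0.

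The other members of the AP-1 family were compared next. Of 9 other AP-1 subunits and partners on the array, 8 passed the filter on low signals, and 1 differed among the positions by the moderated F test in limma at an adjusted p under 0.05, where 11.2% of all tested probe sets did. Along the linear trend 0 rose (1 at an unadjusted p in either direction) and 1 fell, against 7.1% and 6.12% of all probe sets. The median fitted change of the 8 was -0.28, and of all probe sets -0.13. The gene was *fosab*, the zebrafish Fos.

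*fosab* measured 53.4 and 192 in the center of the tailbud, 296 and 199 in the flank, 111 and 186 in the posterior PSM and 167 and 246 in the center PSM. It measured 54.2 and 72.7 in the anterior PSM and 26.9 and 67.5 in the somites. The arrays of positions 1 and 6 overlapped. The fitted change was -1.44 ± 0.43 (adjusted p = 0.0318 with limma). The call is not firm: adjusted p was 0.0601 under quantile normalization and 0.0866 under median centring, it ran from 0.00385 to 0.283 over the alternatives, and the 2 other tested probe sets of *fosab* changed by -1.14 and -0.89 without a call. The trend was no longer called without replicate 2 of position 1, replicate 1 of position 2, replicate 2 of position 3, replicate 1 of position 5 or replicate 1 of position 6.

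The remaining 7 AP-1 genes tested were not called. *junbb*, a JunB gene, was the nearest relative by course here (r = 0.70 with the brighter *jun* probe set). It measured 48.7 and 16.0 in the posterior PSM and 59.9 and 109 in the center PSM. At these positions the brighter *jun* probe set had its lowest and highest means. The extremes of *junbb* lay elsewhere, with its highest mean in the flank (96.8 ± 40.2) and its lowest in the somites (29.05 ± 17.5). Its anterior PSM mean, 79.3 ± 37.2, was near its center PSM mean, 84.55 ± 34.9. The adjusted p of *junbb* in the F test was 0.295. *junba*, the other JunB gene, had 49.5 ± 39.9 and 31.3 ± 20.2 at these positions and 94.2 ± 132 in the somites, with 0.90 and 188 on the 2 arrays. *atf3*, a stress-induced partner, ranged from 5.80 to 166 with the 2 arrays of the flank at 166 and 7.10. *jdp2b*, a repressor that dimerizes with Jun, had its highest mean in the center PSM with 174 ± 48.2. The F test adjusted p of these 3 was 0.801, 0.925 and 0.643.

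Of 54 other immediate early genes on the array, 40 passed the filter, and 12 of these differed among the positions by the F test, or 30.0%, against 11.2% of all tested probe sets. Along the linear trend 12 of the 40 rose toward the somites, against 7.1% of all probe sets, and 2 fell, against 6.12%. The share that fell is near that of all probe sets. The median change was 0.11. Most of the genes called along the trend thus had the direction of *plk3*. Markers of blood and endothelium had the same direction along the trend: 6 of 12 rose and 0 fell, with a median change of 2.11. Their summed signal was 347 and 397 at position 1 and 2225 and 2467 at position 6. It had its highest mean in between, at position 4 (3032 and 7085), where *plk3* was low, and was 5030 and 1628 at position 5. The part of these markers in the rise of the list was not tested. The list was drawn up with earlier results of these arrays known. The rises were fewer without replicate 1 of position 1 (7) or without replicate 2 of position 6 (7), and the falls were 4 without replicate 1 of position 2. When the variances did not follow the intensity, 3 genes were called by the F test and 8 rose.

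Of the 4 Gadd45 genes tested, *gadd45ba* and *gadd45bb* rose, while *gadd45ab* and *gadd45ga* were not called along the trend. *gadd45ba*, which acts on stress kinases, had 142 and 251 in the center of the tailbud and 244 and 236 in the center PSM. It had 507 and 438 in the anterior PSM and 363 and 509 in the somites, above all 8 arrays of positions 1 to 4, as *plk3* was (r = 0.85 over the 12 arrays). Its fitted change was 1.52 ± 0.28 (adjusted p = 0.00077 with limma). *gadd45bb* rose from 7.65 ± 0.495 in the center of the tailbud to 305 ± 123 in the anterior PSM and had 77.7 ± 11.2 in the somites. The antiproliferative gene *btg2* rose from 726 and 1052 to 2053 and 1620 (1.35 ± 0.18, adjusted p = 3.4e-05 with limma), and its relatives *btg1* and *tob1b* rose by 0.87 and 1.40, while a further relative, *tob1a*, fell. *btg1* and *tob1b* were called less firmly, with an adjusted p of the trend up to 0.247 and 0.228 over the alternatives. Neither was called by the F test (adjusted p = 0.155 and 0.112 with limma). The other tested probe set of *tob1b* changed by 0.62 without a call (adjusted p = 0.375 with limma).

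Transcription factors and a kinase rose as well. *mycb*, a Myc transcription factor, measured 34.1 and 53.5 in the center of the tailbud and 303 and 195 in its flank, and stayed between 262 and 442 at positions 3 to 6. Its rise therefore lay at the opposite end of the axis from that of *plk3*. The fitted change was 2.29 ± 0.26 (adjusted p = 3.02e-06 with limma). *myca*, *klf6a* (a Krüppel-like zinc finger factor) and the kinase gene *pim1* rose by 2.00, 1.80 and 1.07. Over the alternatives the adjusted p of the trend of *myca* and *klf6a* reached 0.0725 and 0.131. *myca* was not called by the F test (adjusted p = 0.103 with limma). *ier5* and *ier5l*, which are named with *ier2a* as immediate early response genes, went the other way from it: *ier5l* rose from 399 ± 101 to 1090 ± 89.4, and *ier5* from 1190 ± 213 to 1772 ± 226. The course of *ier5* was near that of *plk3* (r = 0.87), with a fitted change of 0.63 ± 0.17 (adjusted p = 0.0151 with limma). *ier5* was not called by the F test (adjusted p = 0.0789 with limma), and its trend was called in 19 of 22 settings, with an adjusted p of up to 0.132.

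The 2 genes that fell with *ier2a* were *tob1a* and *nfil3-5*. *tob1a*, of the same antiproliferative family as *btg2*, measured 464 and 401 at the tailbud center, 478 and 237 in the flank, 463 and 303 in the posterior PSM, 114 and 128 in the center PSM, 63.5 and 1.80 in the anterior PSM and 18.3 and 28.0 in the somites. Like *ier2a*, its 6 arrays of positions 1 to 3 lay above the 6 others (r = 0.89). The fitted change was -4.30 ± 0.47 (adjusted p = 2.32e-06 with limma). *nfil3-5*, a basic leucine zipper factor, fell from 255 ± 22.3 to 40.7 ± 3.96.

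The other genes of the list called by the F test had no linear trend. *dusp1*, a phosphatase of MAP kinases, had its highest level in the anterior PSM with 717 ± 154 and its lowest in the flank with 325 ± 55.0 (adjusted p = 0.0387 in the F test of limma). *gadd45ab* was highest in the center PSM with 139 ± 48.9 and lowest in the center of the tailbud with 12.8 ± 13.3 (adjusted p = 0.0417 in the same test). Both calls are near the threshold, and their adjusted p over the alternatives reached 0.231 and 0.166. Among the 14 genes that did not pass the filter were *egr1*, *egr2a*, *egr2b*, *egr4* and *nr4a1*, widely used as markers of recent stimulation. *egr1* had its highest position mean, 39.2 ± 44.1, in the center PSM.

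**Figure D2:**
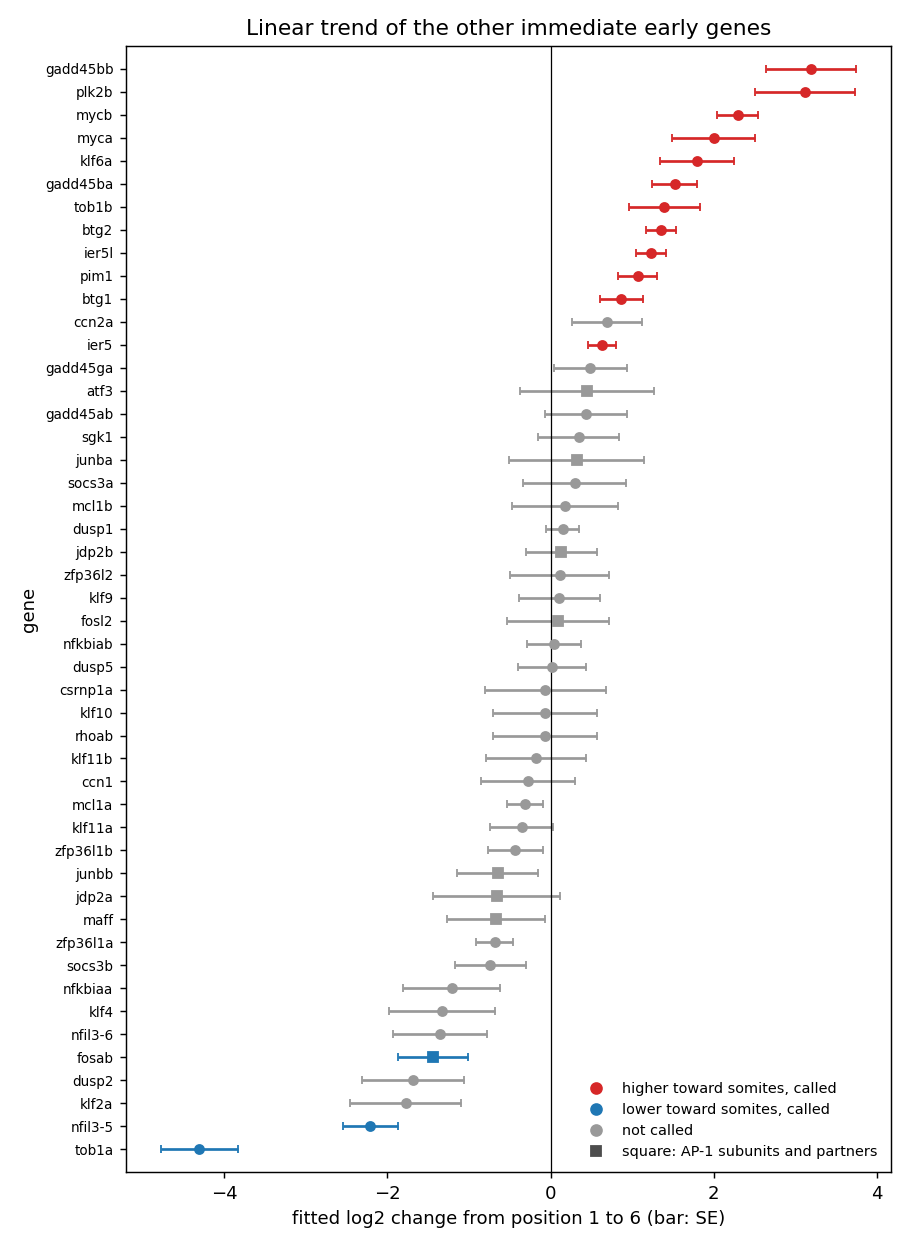
Fitted log2 change from position 1 to position 6 (horizontal axis, bars are the SE of the fit) of the 48 other AP-1 and immediate early genes that passed the filter, 1 gene per line. Red marks the 12 genes that rose, blue the 3 that fell, grey the others, and squares the AP-1 genes. *jun*, *ier2a* and *plk3* are not plotted.

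The polo-like kinases other than *plk3* on the array were *plk1*, *plk2b* and *plk4*. Of these, *plk2b* was already counted above among the other immediate early genes called by the F test and along the trend. *plk2b*, like *plk3* an immediate early kinase, rose with 2.60 and 9.70 at the tailbud center, 5.30 and 90.6 in the flank, 102 and 33.3 in the posterior PSM, 155 and 167 in the center PSM, 95.4 and 236 in the anterior PSM and 80.8 and 196 in the somites (3.12 ± 0.61, adjusted p = 0.00146 with limma). Its mean was about as high in the center PSM (161 ± 8.34) as in the anterior PSM (166 ± 99.6), and the step from position 4 to 5 was -0.08. The posterior PSM arrays overlapped those of the anterior PSM and the somites. The step from position 3 to 4 was not called (adjusted p = 0.788 with limma), so where the rise of *plk2b* began is not fixed by these data. *plk1*, which drives mitosis, was not called (adjusted p = 0.225 in the F test of limma) and had position means between 971 and 1463. *plk4*, which controls centriole duplication, was not called (adjusted p = 0.738 in the same test) and had means between 83.3 and 146.

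Genes of FGF signalling were set beside *ier2a*. Of 13 FGF ligands and feedback targets on the array, 9 passed the filter and 6 of them differed among the positions, against 11.2% of all probe sets. With variances that did not follow the intensity, 2 were called. Along the linear trend 3 fell and 0 rose with limma, against 6.12% and 7.1% of all probe sets, and 5 of the 9 had an unadjusted p under 0.05 in either direction.

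*il17rd* measured 685 and 449 at the tailbud center, 624 and 656 in the flank, 762 and 574 in the posterior PSM, 487 and 386 in the center PSM, 214 and 235 in the anterior PSM and 455 and 225 in the somites (-1.26 ± 0.25, adjusted p = 0.00165 with limma, and 0.0915 under median centring). *etv5a*, an ETS factor induced by FGF, fell from 732 ± 101 to 286 ± 36.3 (-1.53 ± 0.21, adjusted p = 3.02e-05 with limma). A dimmer probe set of *etv5a*, with a mean of 46.0 at position 1 and 38.8 at position 6, changed by -0.21 without a call (adjusted p = 0.904 with limma). *spry4*, a Sprouty inhibitor of the same pathway, measured 443 and 1378 at the tailbud center, 264 and 401 in the flank, 454 and 744 in the posterior PSM, 199 and 259 in the center PSM, 27.7 and 56.1 in the anterior PSM and 303 and 341 in the somites. These genes and *ier2a* all had their lowest mean in the anterior PSM, although the somite and anterior PSM arrays of *il17rd* overlapped. The share of all probe sets with their lowest mean there was not counted, and *etv4*, given below, was lowest in the flank.

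*dusp6* encodes a phosphatase of ERK. Its brighter probe set had its lowest level at the same place, 450 and 634 in the anterior PSM. It was highest in the somites with 2399 and 2406. A dimmer probe set was also lowest in the anterior PSM (mean 8.20), but highest in the flank (107), with 50.6 in the somites. The brighter one was called by the F test (adjusted p = 6.77e-06 with limma) and not along the trend (adjusted p = 0.142). The dimmer one was called by the F test as well (adjusted p = 0.0154 with limma) and not along the trend (adjusted p = 0.065). The step from position 4 to 5 was called for *spry4* (-2.20, adjusted p = 0.0258 with limma), where 0.101% of all probe sets fell. At that step the ligand gene *fgf8a* rose from 31.7 and 11.4 to 262 and 283 (adjusted p = 0.0247 with limma), where 0.111% of all probe sets rose. *fgf8a* is also among the tailbud markers used above, and its linear trend was called in 0 of 22 settings. *etv4* was highest in the center of the tailbud with 627 ± 127 and lowest in the flank with 194 ± 15.5. *etv5b* was not called (adjusted p = 0.0812 in the F test of limma) and had its highest mean, 2295, in the posterior PSM.

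**Figure D3:**
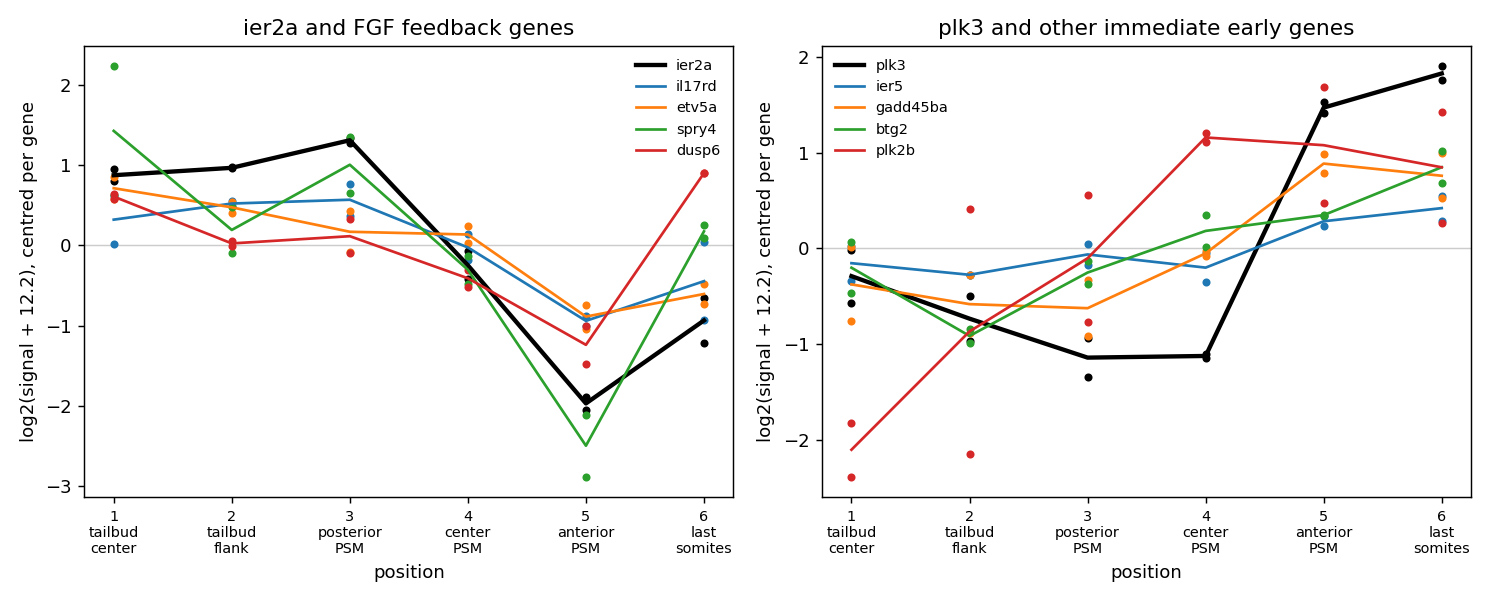
Left, *ier2a* (black) with 4 FGF feedback genes. Right, *plk3* (black) with 4 other immediate early genes. The vertical axis is log2 of the signal plus 12.2, centred on each gene's mean over the 12 arrays, so that it shows differences and no levels between genes. Points are arrays, lines join the means of 2 arrays, and the genes were chosen after their values were seen. *ier2a* and the 4 genes beside it are lowest at position 5, and *plk3* rises at position 5 while the mean of *plk2b* is about as high at position 4 as at position 5.

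The next list held kinases and factors that act upstream of immediate early genes. Of 13 on the array 10 passed the filter, and 0 were called by the F test of limma (2 at an unadjusted p under 0.05), where 11.2% of all probe sets were. Under median centring, an offset at the median, no intensity trend and averaged probe sets 1 was called in each case, as it was without replicate 2 of position 1 or replicate 1 of position 4. *map2k4a*, a kinase upstream of JNK, which phosphorylates Jun, came nearest (adjusted p = 0.0525 in the F test of limma). It measured 80.6 and 115 in the flank, 6.70 and 12.9 in the posterior PSM and 38.7 and 80.5 in the center PSM, and had an r of 0.63 with *jun*. *fibpa*, which encodes an intracellular FGF binding protein, had an adjusted p of 0.709.

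Targets of p53 and heat shock genes were measured as other stress readouts. Of 12 p53 targets on the array 8 passed the filter, and 0 were called by the F test of limma (2 at an unadjusted p under 0.05, and 2 called under median centring), where 11.2% of all probe sets were. Along the trend 1 rose, where 7.1% of all probe sets did. It was *foxo3b* (2.00, adjusted p = 0.0176 with limma), which was called in 17 of 21 settings with an adjusted p of up to 0.125. *mdm2*, a direct target of p53, had means between 32.4 and 75.3. Of 19 heat shock and stress genes on the array 16 passed the filter and 1 (6.25%) was called by the F test, against 11.2% of all probe sets. It was *hspb1*, a small heat shock protein gene. The count was 2 without replicate 2 of position 2 and 0 without replicate 2 of position 5. It had its lowest mean, 1318 ± 101, in the anterior PSM, where *ier2a* was also lowest, and 2759 ± 614 in the center of the tailbud (adjusted p = 0.0113 in the F test of limma, and up to 0.222 over the alternatives). Along the trend the mitochondrial chaperone gene *hspd1* rose by 0.84 ± 0.23 (adjusted p = 0.0183 with limma, called in 18 of 22 settings). The autophagy receptor gene *sqstm1* changed by -1.15 ± 0.31 (adjusted p = 0.0168 with limma). That call was held in 16 of 22 settings and was lost under quantile normalization (0.0567) and median centring (0.168). The inducible *hsp70.3* stayed between 4.50 and 55.1 on all 12 arrays. The summed signal of the 19 genes lay between 17197 and 20356.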

How the data were processed

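The deposited values are 1 intensity per probe set and array on a linear scale, made by the authors with MAS5 per the submitters' processing notes, which give no version. RNA was amplified, labelled with biotin and hybridized to an Affymetrix array, per the labels' protocols. The 2% trimmed mean was 150 on every array, so 1 scaling factor had been applied to each. Of 15617 probe sets 115 controls were left out. Of the others, 10795 had 1 symbol, 135 several and 4572 none in the platform annotation, and genome positions were not used here. An offset of 12.2, equal to the 25th percentile of the signals, was added before log2. The 4651 probe sets with the lowest mean log2 values (under the 30th percentile) were dropped, and 10851 were tested.

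One model with 6 position means was fitted in limma 3.58.1 (R 4.3.3), with variances that follow the intensity and 6 residual degrees of freedom. A moderated F test over the positions, a linear trend and single steps were each adjusted by Benjamini-Hochberg over all tested probe sets, two-sided, with calls at an adjusted p under 0.05. "Rose" and "fell" refer to the trend unless a step is named. Where a listed gene had several probe sets, the one with the highest mean stood for it. Named genes were the 3 genes, the 6 genes with the highest r to each, the called genes of each list (up to 6 by the smallest F test p), and relatives of the 3 genes. Further called genes, and *egr1*, *egr2a*, *egr2b*, *egr4*, *nr4a1*, *gadd45ga*, *mdm2*, *hsp70.3*, *fibpa*, *map2k4a* and *etv5b*, which were not called, were named after their values were seen. A ranking by the mean of the 3 r values is not given, since the r values among the 3 genes limit it. The members, lists and rules were chosen with earlier results of these data known. The procedure was tested on simulated data. Across probe sets, the deviations of same-numbered arrays from their position means correlated between -0.07 and 0.08 between positions. No pairing by replicate number was visible in them, but a shift shared by all probe sets of an array cannot be seen this way. Array medians were higher in replicate 2 at every position but position 2. A replicate block was fitted as an alternative.

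The alternatives were quantile normalization, median centring, offsets of 1 and 50.2, dropping the filter or setting it at the 60th percentile, no intensity trend, a replicate block, a fit without position 2, averages over the probe sets of a gene, and fits that leave out a single array.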

Additional observations from a re-analysis of the deposited data

How the results depend on the processing

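The courses of *ier2a* and *plk3* kept their direction under all alternatives. Median centring changed part of the order of the position means of *ier2a*, as given above. For *plk3* it made position 4 (1.91 on the log2 scale) the lowest in place of position 3 (1.98). The fitted linear change of *ier2a* was -2.41 under median centring and ran from -2.98 to -2.58 with 1 array left out, and that of *plk3* was 2.82 and ran from 2.26 to 2.66. The difference between highest and lowest position of *plk3* was 3.71 under median centring. For *jun* this difference was 4.87 with an offset of 1, 2.60 with an offset at the median, 2.92 with its probe sets averaged and 2.17 with the other probe set alone, a setting chosen after seeing the data. With 1 array left out it ran from 3.44 to 4.33, for *ier2a* from 3.21 to 3.36 and for *plk3* from 2.90 to 3.18.

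Without the intensity trend the F test called 419 probe sets in place of 1210, 3 of the other immediate early genes, 2 FGF genes, 0 heat shock genes, 0 AP-1 genes and 1 upstream gene. The AP-1 count was also 0, by the F test and along the trend, under quantile normalization, median centring, averaged probe sets and without position 2. With 1 array left out these AP-1 counts ran from 0 to 1. Upstream genes numbered 1 under median centring, an offset at the median and averaged probe sets, and 0 to 1 with 1 array left out. Under median centring 2 p53 targets and 2 heat shock genes were called, and heat shock genes numbered 2 under the filter at the 60th percentile, 3 with averaged probe sets, and 0 to 2 with 1 array left out. With 1 array left out the other immediate early genes ran from 9 to 13 by the F test, from 7 to 12 rises and from 2 to 4 falls, FGF genes from 5 to 7, and all probe sets from 821 to 1443. With the replicate block the counts were 13, 12 and 3 for the other immediate early genes, 6 for the FGF genes and 1320 for all probe sets, and no count of the lists moved by over 1.5 times. Of all values recomputed, 329 stayed within the limits set and 47 moved. A count stayed if it remained within 1.5 times, or at 0 where it had been 0. A value of *jun*, *ier2a* or *plk3* stayed if it changed by less than the residual SD of that gene. For *jun* this limit of 0.93 is wide: its trend of -0.18 without replicate 1 of position 2, against 0.42, was counted as unmoved. Over all probe sets the trend had a median of -0.13, which became 0.01 with quantile normalization and 0.24 with median centring. The cause of these shifts was not tested. The dim *jun* and AP-1 signals, and a position mean of 2 arrays, limit what can be seen here.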
